A study of Danio rerio with 3 samples.

Results

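The comparison described here is between whole zebrafish (Danio rerio) larvae that had been exposed to oil emulsion from 48 to 96 h post-fertilization (hpf) and larvae kept in medium without emulsion, both collected at 192 hpf. The exposed larvae had therefore spent their last 96 h in clean medium. Each condition was read on 1 Affymetrix zebrafish array. The genes were chosen by level: of 8793 genes with a probe set (several short probes read together as 1 value) that carries a single gene symbol, 5492 reached 7.21, the median of all deposited log2 values, on at least 1 of the study's 3 arrays. Each of these genes is represented by its brightest probe set.

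The oil emulsion came from the Gulfport shoreline and held alkanes and aromatic hydrocarbons with sand and seawater. A portion of 250 mg was spread inside a cup, and 30 embryos in 100 ml of medium were placed on it. Another array, from larvae exposed in the same way from 0 to 48 hpf and kept in clean medium for 144 h, entered the choice of genes, and its values are given beside those of interest. The sources used here do not give the number of larvae behind an RNA sample. With 1 array per condition there is no spread between replicates and no test, so every difference below is a description of 2 arrays. RNA came from whole larvae, so fewer cells of a type and less RNA per cell cannot be told apart.

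Crude oil contains polynuclear aromatic hydrocarbons (PAHs), flat ring-shaped molecules that bind the aryl hydrocarbon receptor (AHR). The bound receptor leaves its Hsp90 chaperones, pairs with Arnt and switches on genes that include the cytochrome P450 enzymes of the CYP1 family. P450 enzymes need heme, and electrons that come from NADPH through P450 reductase and cytochrome b5. Their oxidised products are joined to sulfate, glucuronate or glutathione and then exported, and reactive by-products are met by the enzymes under the regulator Nrf2. In zebrafish larvae ahr2 is the receptor through which most effects of dioxins and of many PAHs pass.

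The comparison was centred close to 0, with a median difference of -0.02 on the log2 scale (48-96 hpf array minus control, as for every difference below) and quartiles of -0.14 and 0.10. The middle 95% of genes lay between -0.41 and 0.44. Probe sets of the same gene differed around their gene's mean with an SD of 0.16 (718 genes with several bright probe sets), and 18 hybridisation controls added to each sample averaged 0.01 with an SD of 0.14. On the 0-48 hpf array the same controls averaged -0.50 against control. Every 0-48 hpf value below is on the deposited scale, and scaled to these controls it would lie 0.50 higher. That shift would be the same for every gene of the array, whose median was 7.20 as deposited, against 7.22 on control. It would not change where a list stands among the genes of that array. The share of all genes above control on that array is not given. Counts of its genes above or below control therefore have no background beside them. The 3' minus 5' signal of gapdh, a sign of RNA integrity, was 0.38 on the control array, 0.43 on the 0-48 hpf array and 0.34 on the 48-96 hpf array. That of acta1 had the opposite order, at 1.69, 1.63 and 1.79 on the same arrays. Of 24 defining markers of tissues, 21 passed the filter, and their differences ran from -0.43 (myl7, heart muscle) to 0.82 (fabp10a, liver).

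Few genes differed widely, and those that did were mostly higher. At least 2-fold higher than control were 17 genes (0.31% of the 5492) and at least 2-fold lower were 5 (0.091%). At 1.5-fold the counts were 61 higher (1.11%) and 37 lower (0.674%), which left 98.2% of genes within 1.5-fold. By contrast 45.4% of all genes, 2492, lay above control by any amount, so the majority leaned slightly the other way. Of the 61 higher genes 39, and of the 37 lower genes 17, belonged to at least 1 of the 51 lists of tissue, cell type and pathway genes used here. These lists were written with earlier results of these data known. The share above control depends on scaling and filter and lay between 43.0% and 52.1% under the alternatives tried.

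By the mean of the control and exposed arrays, the genes at least 2-fold higher were mostly bright, and at 1.5-fold this was less marked. The genes were put into 4 bins by this mean, 1373 in each. From the dimmest bin to the brightest, the 2-fold higher genes numbered 1, 2, 4 and 10, and the 2-fold lower genes 3, 0, 1 and 1. A rise on the exposed array is part of this mean and moves a gene towards the brightest bin, which starts at 9.59. On the control array alone, cyp3a65, sult6b1, alas1, ces2b and faxdc2 read above that value. Below it were cyp1a (9.30), prdx1 (9.44), cyb5a (9.35), mao (9.42) and si:ch211-207n23.2 (9.21), which the exposed array brought into that bin. At 1.5-fold the higher genes numbered 12, 11, 15 and 23 and the lower ones 12, 6, 11 and 8. The SD of all differences was much alike in the 4 bins, at 0.23, 0.22, 0.23 and 0.26. Of the 61 higher genes 12 were under the filter value on the control array, and of the 37 lower genes 8 were under it on the exposed array. For these the reading on the dim side is under the median of all values, and the fold is less certain. Probe sets for reporters that the zebrafish genome does not hold read higher on the exposed array too: 6.46 on control against 6.77 for AsRed2, 7.24 against 7.70 for d2EGFP and 5.79 against 6.19 for DsRed1. Differences of 0.31, 0.46 and 0.39 were thus read where the probes target no zebrafish transcript, for d2EGFP at a level above the filter value.

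**Figure D1:**
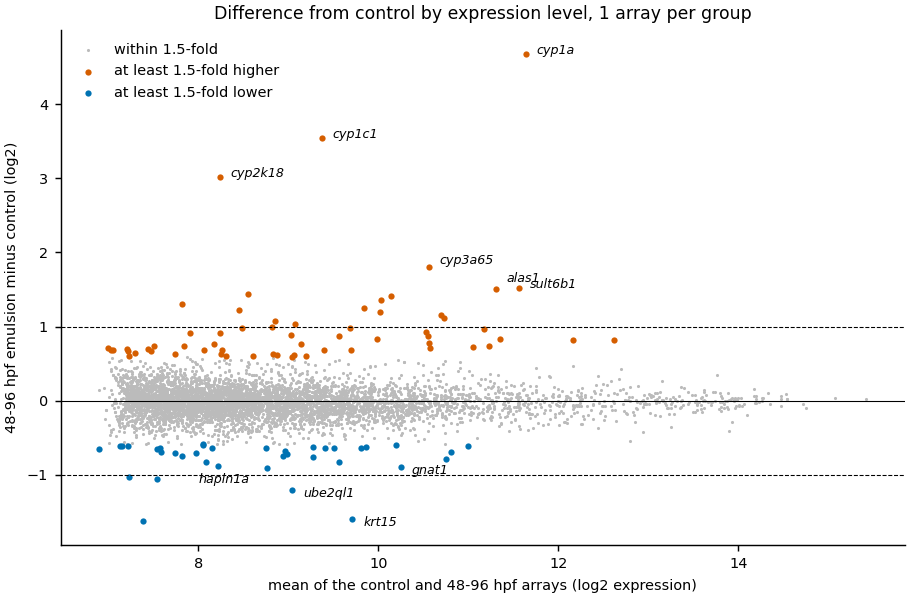
Each point is 1 of the 5492 genes, with the mean of the control and 48-96 hpf arrays (log2 expression) on the horizontal axis and their difference (48-96 hpf minus control, log2) on the vertical axis. Dashed lines mark 2-fold; coloured points are the 61 genes at least 1.5-fold higher and the 37 at least 1.5-fold lower, and cyp1a, cyp1c1 and cyp2k18 stand above all the others.

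The AHR pathway held the highest genes. The transcript of cyp1a, the P450 that oxidises PAHs and is the usual marker of AHR activation, read 9.30 on the control array, 10.50 on the 0-48 hpf array and 13.98 on the 48-96 hpf array. That is 25.7-fold above control after the later exposure, where the earlier one gave 2.3-fold. Its relative cyp1c1 read 7.60, 8.26 and 11.15 in the same order, 11.7-fold above control on the 48-96 hpf array, and a second bright probe set of this gene gave a difference of 3.34 beside the 3.54 of the first. With a further, dim probe set counted in, the mean was 2.42. On both genes the 0-48 hpf array lay between the other arrays and closer to control.

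The receptor itself and a target that limits it, tiparp, were also higher. The ahr2 transcript read 8.75, 8.99 and 9.52 (control, 0-48 hpf, 48-96 hpf), a difference of 0.77. For tiparp, an ADP-ribosyltransferase that is an AHR target and limits the receptor, the readings were 8.32, 8.53 and 9.31, a difference of 0.99. Among further targets, the sulfotransferase gene sult6b1 was 1.52 above control and nqo1, a quinone reductase that Nrf2 also controls, 0.54. The Nrf2 gene nfe2l2a read 0.12. The chaperones that hold the receptor did not share these differences: hsp90aa1.1 read 0.07, hsp90ab1 -0.05, and the co-chaperones ptges3a and ptges3b -0.12 and -0.09. The AHR list had 8 of its 11 measured genes above control (72.7%, against 45.4% of all genes). Of these 5 were at least 1.5-fold higher (1.11% of all genes were), and the list median was 0.54, against 0.08 on the 0-48 hpf array. A further 4 members (ahr1a, arnt2, cyp1d1 and slc16a9a) had probe sets below the filter, and cyp1b1, cyp1c2, ahrra, ahr1b and arnt had no probe set with that single symbol. A signal from cyp1c2 in the cyp1c1 probe sets was not tested.

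Among the CYP2 and CYP3 enzymes, which oxidise drugs, steroids and fatty acids, all 9 measured genes were above control (45.4% of all genes were). A further 11 genes of that list were below the filter. Among the 9, cyp2aa4 (7.07, 7.04 and 7.46) passed the filter on the 48-96 hpf array alone, so its side of control was set by the filter. The highest was cyp2k18, at 6.73, 7.33 and 9.74 on the 3 arrays. Its difference of 3.01 starts from a control reading under the filter value. Next came cyp3a65, a CYP3A enzyme of liver and gut, at 9.66, 9.65 and 11.46, a 3.48-fold difference, with a second probe set at a log2 difference of 1.71 beside 1.80. Here the control and 0-48 hpf arrays read alike and the 48-96 hpf array stood apart. The other 7 lay between 0.12 (cyp2p6) and 0.61 (cyp2y3), and the list median was 0.33 against -0.01 on the 0-48 hpf array. The P450s of sterol, bile acid, retinoid and vitamin D metabolism were less far from control: none of 7 measured genes reached 1.5-fold, and the highest were cyp24a1, which inactivates vitamin D (0.42), and cyp26b1, which clears retinoic acid (0.37). Their median of 0.28 was close to the 0.27 of the 0-48 hpf array.

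Genes that furnish P450 enzymes with heme and electrons were higher in part. The first enzyme of heme synthesis in most tissues, alas1, read 10.55, 10.71 and 12.06, which is 2.85-fold above control on the 48-96 hpf array. The red-cell isoform alas2 differed by 0.31 and the next enzyme of the pathway, alad, by 0.35, while cpox, further down, read 0.00. Also higher was tspo (0.68), a mitochondrial outer membrane protein that binds porphyrins and cholesterol. Of 21 genes of heme and iron handling, 18 were above control (85.7%, against 45.4% of all genes), with a median of 0.17. Cytochrome b5, cyb5a, read 9.35, 9.47 and 10.70, a difference of 1.35. The P450 reductase gene pora did not share it, at 7.76, 7.98 and 7.82, and the b5 reductases cyb5r1 and cyb5r3 read 0.10 and -0.03.

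Conjugating enzymes differed gene by gene more than as families. The sulfotransferase sult6b1 read 10.81, 10.85 and 12.33, so that the 48-96 hpf array alone was higher. Of the other 7 genes of sulfation none reached 1.5-fold, and they ran from -0.27 (sult3st1) to 0.24 (sult2st1). For glucuronidation, ugdh, which makes UDP-glucuronate, was 1.03 above control (8.56 and 9.59) and 0.62 on its second bright probe set. It was measured with ugp2b (0.02) and pgm1 (0.30), which supply its substrate. No transferase of that family passed the filter.

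Among the glutathione transferases 8 of 9 were above control (88.9%, against 45.4% of all genes). Of the 8, 3 were at least 1.5-fold higher (1.11% of all genes were). These were gsto2 (10.69 on control, 10.75 on the 0-48 hpf array and 11.65 on the 48-96 hpf array), gstt1b (9.13, 9.28 and 9.99) and gstp1.2 (12.21, 12.38 and 13.03). The 9th, gstm.1, lay on the other side of control at -0.47. The list median was 0.26, against 0.07 on the 0-48 hpf array. Of 8 ABC transporters, the family of the export pumps, 6 were above control (75%, against 45.4% of all genes). Their median was 0.21 and none reached 1.5-fold. The highest was abcb5 at 0.53, from a control reading under the filter value.

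Enzymes of glutathione, peroxides and thioredoxin included some of the higher genes. Of 16 genes of glutathione synthesis and reduction 12 were above control (75%, against 45.4% of all genes), with a median of 0.15. Of the 12, 1 was at least 1.5-fold higher (1.11% of all genes were). The peroxiredoxin prdx1, which removes hydrogen peroxide, read 9.44, 9.77 and 10.85, a 2.65-fold difference that its other probe sets gave as 1.44 and 1.26 on the log2 scale. Its relatives prdx2 (-0.04) and prdx4 (-0.09) did not share it. Glutathione reductase, gsr, stood at 8.58, 8.62 and 9.47, again with the 48-96 hpf array alone far from control. Glutathione peroxidase gpx1a differed by 0.54, thioredoxin txnb by 0.60 and glutaredoxin glrx by 0.40. The subunits of the enzyme that begins glutathione synthesis differed by 0.44 (the modifier gclm) and 0.15 (the catalytic gclc), and the cystine carrier partner slc3a2b lay at -0.41. Over the Nrf2, peroxide and thioredoxin list, 20 of 25 genes were above control (80%, against 45.4% of all genes), with a median of 0.18. At least 1.5-fold higher were 2 genes of the list (1.11% of all genes were). The Nrf2 inhibitor keap1a (0.55) and the autophagy adaptor sqstm1 (0.52) were among its higher members.

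NADPH, which both P450s and glutathione reductase consume, comes from a small set of dehydrogenases, and the higher ones were cytosolic. The cytosolic malic enzyme me1 read 7.84, 7.87 and 9.07, a difference of 1.23 (0.91 on its second probe set). The pentose phosphate enzyme pgd read 10.06, 10.21 and 10.99, a difference of 0.93. Cytosolic idh1 was 0.52 above control and taldo1, of the same pentose pathway, 0.50. The mitochondrial counterparts me3 (-0.16), idh2 (-0.01) and nnt (-0.10) lay at or below control. Of the 11 genes 7 were above control (63.6%, against 45.4% of all genes), and the median was 0.06.

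Enzymes of aldehydes, amines and esters added further single genes to a list that differed little as a whole. Of its 28 genes 16 were above control (57.1%, against 45.4% of all genes), with a median of 0.05. Monoamine oxidase, mao, read 9.42, 9.66 and 10.62, although its other bright probe sets differed by only 0.48 and 0.40 and the mean over all of them by 0.57. The carboxylesterase ces2b was at 10.12 on control and 11.27 on the 48-96 hpf array, while the carbonyl reductase cbr1l stood at 9.19, 9.40 and 10.18. For each of these the 48-96 hpf array alone was far from control. On the lower side were the alcohol dehydrogenase adh8b (-0.36) and the aldehyde dehydrogenase aldh2.2 (-0.30).

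Of the 61 genes at least 1.5-fold higher, 22 stood in none of the 51 lists. Among them were crtac1a (0.71), msx2b (0.70), ldb1b (0.68), slc35b4 (0.66) and ppp6r3 (0.60), each from a control reading under the filter value. Other higher genes outside the lists above were picked out for related chemistry after their values had been seen. They include sqor (0.98), which oxidises hydrogen sulfide in mitochondria, selenbp1 (0.91), a methanethiol oxidase, aoc1 (0.73), a diamine oxidase, the short-chain dehydrogenase dhrs11b.2 (0.78), and selenow2b (0.71), a small selenoprotein. The sterol-modifying hydroxylase relative faxdc2 read 10.17, 10.27 and 11.29. Genes known only by clone names among the 2-fold higher were wu:fj05g07 (1.44) and si:ch211-207n23.2 (1.25), and mala.2 was at 1.07. The gene lists were written with earlier results of these data known, so the shares that follow are descriptions and no test. Over the 12 lists of chemical defence together, 113 of 152 measured genes were above control (74.3%, against 45.4% of all genes). Of these, 24 (15.8%, against 1.11%) were at least 1.5-fold higher and none at least 1.5-fold lower. A further 38 genes of these lists were below the filter. On the 0-48 hpf array 101 of the 152 were above control, with a median of 0.06 against 0.17, and no share of all genes is given for that array.

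**Figure D2:**
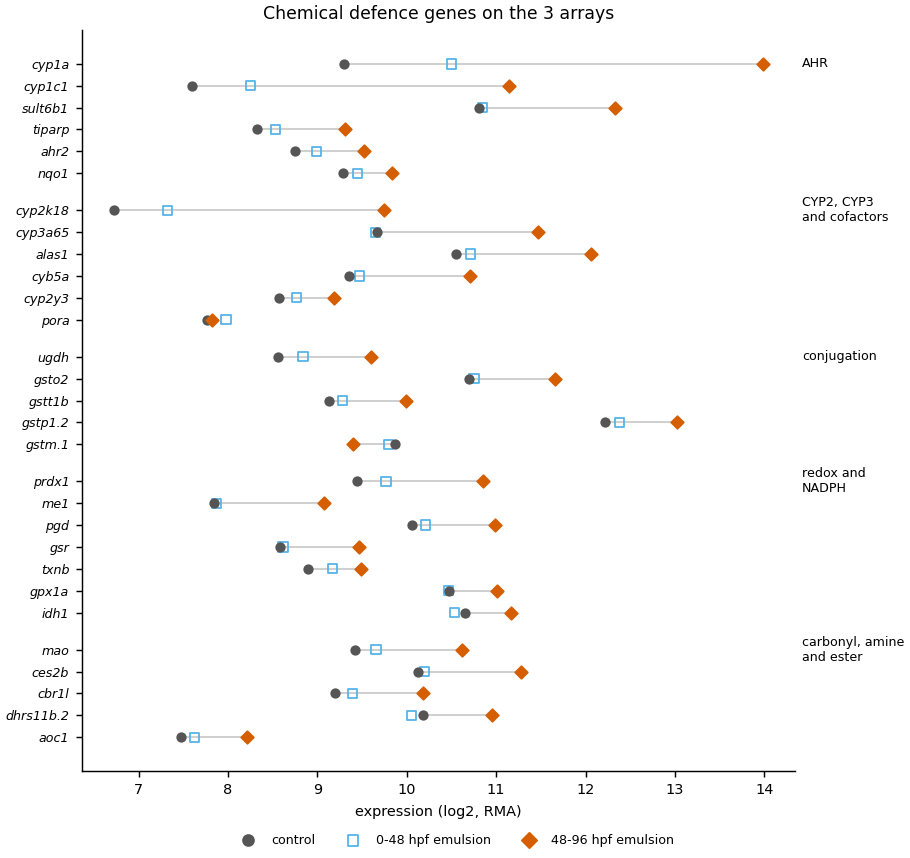
Expression (log2) of chemical defence genes on the control array (circles), the 0-48 hpf array (open squares) and the 48-96 hpf array (diamonds), 1 value per array, grouped by role. The genes were chosen with their values known, and not all measured members of the defence lists are drawn. In most of the rows drawn the open square sits near the circle and the diamond to the right, which reflects that choice. In pora and gstm.1 this is not so.

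The liver, the main site of these enzymes, leaned the same way. Of 64 measured liver genes 52 were above control (81.2%, against 45.4% of all genes), with a median of 0.15, close to the 0.14 of the 0-48 hpf array. At least 1.5-fold higher were 2 of the 64 (1.11% of all genes were). The liver fatty acid binding protein fabp10a, a defining marker of hepatocytes, read 11.76, 11.99 and 12.58, a difference of 0.82. The other gene was hpda, at 8.31, 8.61 and 8.92, which carries out a step of tyrosine breakdown. Its neighbours in that pathway, picked out after their values had been seen, lay close together: tat at 0.52 from a dim control reading of 6.75, hgd at 0.55 and fah at 0.53. Secreted proteins of the liver varied, from vitronectin vtnb (0.38), the fibrinogen chain fga (0.24) and the apolipoprotein apoa1a (0.16) to transferrin tfa (-0.02) and haptoglobin hp (-0.16). The regulators of liver and gut fate were near control, such as hnf4a (0.04) and foxa2 (0.12). Liver markers and the defence genes thus stood above control on the same array, and the part of liver RNA content in the defence genes was not tested. For scale, fabp10a differed by 0.82, and among the defence genes cyp1a differed by 4.68, gsto2 by 0.96 and gstp1.2 by 0.81. The median over the defence lists was 0.17.

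In the intestine the higher genes were those of bile acid uptake and of chitin digestion. The ileal bile acid carrier fabp6 read 10.93, 11.07 and 11.77, and slc10a2, which takes bile acids up from the gut, 7.92, 7.71 and 8.60. The chitinases chia.2 (0.73) and chia.6 (0.68, from a control reading under the filter value) completed the 4 intestinal genes at least 1.5-fold higher, of 23 measured (1.11% of all genes were). Of the 23, 15 were above control (65.2%, against 45.4%). The enterocyte marker fabp2 differed by 0.05 only, villin vil1 by -0.26 and the retinol carrier rbp2a by -0.39, and the list median was 0.11.

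The exocrine pancreas read near control on the 48-96 hpf array. Of 18 digestive enzyme genes 10 were above control after the 48-96 hpf exposure (55.6%, against 45.4% of all genes), with a median of 0.01. None was above control after the 0-48 hpf exposure on the deposited scale, with a median of -0.56. Scaled to the hybridisation controls, the 0-48 hpf values of all genes would lie 0.50 higher, and that median too would be near control. The list would still stand as far from the other genes of that array. Trypsin prss1 read 13.67, 13.35 and 13.65, and amylase amy2a 11.11, 10.19 and 10.96. The phospholipase gene pla2g1b was the only one past 1.5-fold, at 8.75, 7.67 and 9.37. Insulin, ins, differed by 0.18. None of the 15 genes of the list of endocrine pancreas and gut hormones, which also holds regulators such as neurod1 and pax6b, reached 1.5-fold. Of these 6 were above control (40%, against 45.4% of all genes).

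As lists, genes of general metabolism differed by small amounts. Of 76 genes of oxidative phosphorylation 56 were above control (73.7%, against 45.4% of all genes) and of 35 genes of fatty acid oxidation 23 (65.7%), but with medians of 0.05 in both and none at 1.5-fold. Of 61 genes of glycolysis, gluconeogenesis and the citrate cycle the liver glycogen phosphorylase pygl (0.83) was the only one that did, and its other probe sets gave 0.53 and 0.34. Of 15 sterol synthesis genes fdps (-0.61), which makes farnesyl diphosphate, was at least 1.5-fold lower, from dim readings of 7.43 and 6.82. Of 23 genes of fatty acid synthesis, elongation and desaturation 12 were above control (52.2%), with a median of 0.02. In this list me1 (1.23) and faxdc2 (1.12) were at least 2-fold higher. The elongation genes elovl4b (-0.57) and elovl5 (-0.58) came just short of 1.5-fold on the lower side.

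Among immune genes and matrix proteases, some of the highest were also high on the 0-48 hpf array. The collagenase mmp13a read 7.45, 8.61 and 8.37, and the gelatinase mmp9 7.96, 9.34 and 8.49, so in both the 0-48 hpf array was the highest. The acute-phase protein crp3 had the other order, at 10.12, 10.14 and 10.99. The lysozyme lyz (-0.32), the neutrophil peroxidase mpx (0.26) and the chemokine cxcl12b (-0.64) showed no common direction. Of 39 genes of leukocytes and innate immunity 20 were above control (51.3%, against 45.4% of all genes), and the median was 0.01.

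The lowest gene with a known product was the keratin krt15 of the skin. It read 10.51, 10.13 and 8.92, 3.01-fold below control on the 48-96 hpf array, and annexin anxa1c read 11.16, 11.04 and 10.47. The abundant keratins krt91 (-0.54), krt17 (-0.50) and krt4 (-0.41), the last a marker of surface epithelium, lay on the same side without reaching 1.5-fold. So did the mucin of goblet cells, muc5.1 (-0.41). Others were above control, such as the epithelial regulator elf3 (0.42) and the glutathione transferase gstp1.2 (0.81), which stands in this list as well. Of 56 measured genes of keratins and epidermis 18 were above control on this array (32.1%, against 45.4% of all genes) and 38 on the 0-48 hpf array, with medians of -0.08 and 0.07. The count on the 0-48 hpf array has no share of all genes beside it, so the counts cannot be compared. Keratin genes are similar in sequence, and signal of one in the probe set of another was not tested. Among ionocyte and ion transport genes, the sodium pump subunit atp1a1a.3 (-0.51) and the dicarboxylate carrier slc13a2 (-0.64) were lowest.

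Several cartilage genes were lower, although the list as a whole stood near the background. The link protein hapln1a, which ties hyaluronan to proteoglycan, read 9.22, 9.04 and 8.31, and its other bright probe sets gave -0.66 and -0.50 (-0.29 as the mean over all 6, dim ones included). The chondrocyte regulator sox9b stood at 8.33, 8.32 and 7.62, but the mean over all its probe sets, dim ones included, differed by only -0.15. On the brightest probe sets both were near control after the earlier exposure. The collagens of cartilage differed in the same direction by less: col9a3 by -0.58, col9a2 by -0.41, col9a1b by -0.38 and col2a1a, the defining marker of chondrocytes, by -0.35. Chondromodulin, cnmd, read -0.50 and the growth factor receptor fgfr2 -0.58. The regulators dlx3b (0.35) and dlx5a (0.15) and the matrilin matn4 (0.11) were above control. Of 33 genes of cartilage and bone 13 were above control (39.4%, against 45.4% of all genes). Among the 20 below it 2 were at least 1.5-fold lower (0.674% of all genes were). On the other side mmp13a was the only one at least 1.5-fold above control (1.11% of all genes were).

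The collagen matrix outside cartilage leaned the same way, with 7 of 29 genes above control (24.1%, against 45.4% of all genes). Its median was -0.20, and on the 0-48 hpf array 21 of 29 were above control (median 0.07). For that array the share of all genes is not given, so its count cannot be set against that of the 48-96 hpf array. The matrix protein spon2b was the only one at 1.5-fold, at 8.65, 8.32 and 7.77. The collagen chaperone serpinh1b, counted with the folding genes, read 9.25, 9.54 and 8.77. Fibronectin fn1b (9.13, 9.52 and 8.83) and tgfbi (10.42, 10.54 and 10.09) had the same order, with the 0-48 hpf array highest and the 48-96 hpf array lowest. The signal transducer smad3a, which relays TGF-beta signals, read 8.19, 7.63 and 7.44, and both exposed arrays were below control. Over skin, cartilage and matrix together, 38 of 118 measured genes were above control (32.2%, against 45.4% of all genes). At 1.5-fold or more, 2 were higher (1.69%, against 1.11% of all genes) and 5 lower (4.24%, against 0.674%).

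In the eye, rod genes were lower after both exposures on the deposited scale. The rod transducin subunits gnat1 (10.70, 9.93 and 9.81) and gnb1b (11.14, 10.62 and 10.36) were at least 1.5-fold below control, and gnat1 had a second probe set at -0.82. The disc protein rom1b read 7.93, 7.14 and 7.24. Of 12 rod genes 11 were below control on the 48-96 hpf array, with a median of -0.37. The exception, prph2b, another disc protein, read 9.41, 8.95 and 9.71. Above control was thus 8.3% of this list, against 45.4% of all genes. On the 0-48 hpf array all 12 were below control, with a median of -0.57. Scaled to the hybridisation controls, those 0-48 hpf values would lie 0.50 higher, as would those of all other genes of that array.

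Cone genes were lower by less than rod genes on the 48-96 hpf array, with 13 of 17 below control and a median of -0.19. Above control were 23.5% of them, against 45.4% of all genes. Their 0-48 hpf median was -0.42 on the deposited scale, and scaled to the hybridisation controls it would lie above control. All genes of that array would move up by the same amount. Cone transducin gnat2 read 12.22, 11.46 and 11.93, and the phosphodiesterase pde6c 11.90, 11.05 and 11.53. On the deposited scale the 48-96 hpf array lay between the others. One cone opsin went the other way: the green opsin opn1mw2 read 7.17, 7.05 and 8.47, a 2.47-fold difference from a control reading just under the filter value. Its tandem neighbour opn1mw1 read 12.91, 12.49 and 12.76, and the ultraviolet and blue opsins opn1sw1 and opn1sw2 differed by -0.29 and -0.19. The green opsin genes are close copies, and the split of signal between their probe sets was not tested. The photoreceptor regulator crx was at -0.42. Lens and visual cycle genes had a median of -0.15, and the lens crystallin cryaa differed by 0.11.

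Neuronal genes were above control in 11 of 47 cases (23.4%, against 45.4% of all genes). Their median was -0.12, close to the -0.15 of the 0-48 hpf array. The adhesion molecule cadm3 read 8.50, 8.12 and 7.67, and the sodium channel gene scn8aa 7.89, 7.55 and 7.25. The intermediate filament gene inaa was lowest on the 0-48 hpf array (8.55, 7.67 and 8.00). The general neuronal marker elavl3 differed by 0.02 on the probe set used and by -0.29 and -0.14 on its other bright ones, and the glial markers gfap and mbpa by -0.10 and -0.13. The homeobox gene lhx8a was at 0.64, from a control reading under the filter value. Further neuronal genes among the 37 lower ones were clstn1 (-0.61) and the splicing regulator rbfox1 (-0.63). Clock genes, whose transcripts follow the time of day, had 7 of 25 members above control (28.0%, against 45.4% of all genes). The repressor cry2 read 9.34, 8.60 and 8.62, with its second probe set at -0.75, and cry1b (-0.41), bhlhe41 (-0.41) and rorab (-0.42) were on the same side. The sources used here do not give the hour at which each sample was taken.

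Heart muscle genes were above control in 2 of 13 cases (15.4%, against 45.4% of all genes). The differences were small, with a median of -0.12 against 0.07 on the 0-48 hpf array. The regulator mef2ca read 8.57, 8.14 and 8.08, and the myosin light chain myl7, a defining marker of heart muscle, 9.21, 9.42 and 8.78. The contractile genes ttn.2 (-0.05) and actc1a (0.01) were near control. None of the 13 reached 1.5-fold, and neither did any of 58 skeletal muscle genes, whose median was -0.04 and whose marker mylpfa differed by 0.02.

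**Figure D3:**
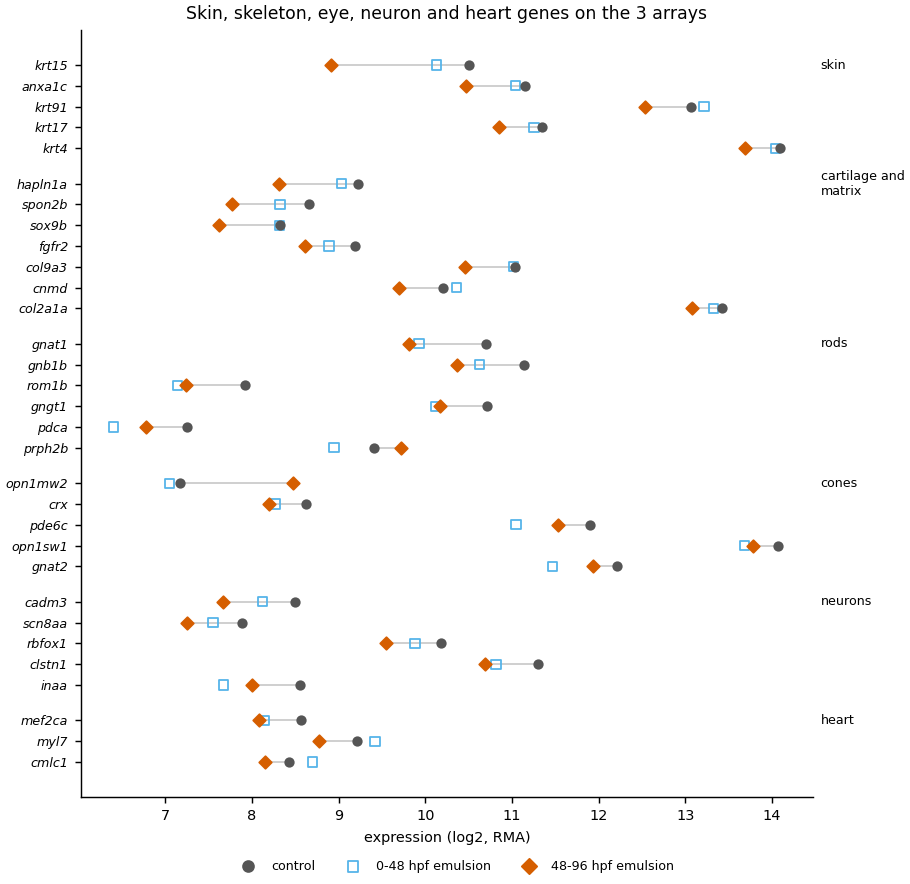
Expression (log2) of genes of skin, cartilage and matrix, rods, cones, neurons and heart on the control array (circles), the 0-48 hpf array (open squares) and the 48-96 hpf array (diamonds), 1 value per array. The genes were chosen with their values known, and members above control such as elavl3, lhx8a, elf3 and dlx3b are not drawn. Among the rows drawn, diamonds lie left of circles except in prph2b and opn1mw2, which reflects that choice. For rods and cones the open squares lie left of the circles too, on the deposited scale.

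The remaining genes at least 2-fold lower belong to no tissue list. They were the ubiquitin-conjugating enzyme relative ube2ql1 (9.65, 9.02 and 8.44), zgc:112964 (8.19, 8.29 and 6.57), ankrd12 (8.07, 7.51 and 7.01) and the chromatin remodelling subunit rsf1b.1 (7.74, 7.28 and 6.71). The last 3 read under the filter value on the 48-96 hpf array. As means over all probe sets, dim ones included, ube2ql1 differed by -0.53, ankrd12 by -0.57 and rsf1b.1 by -0.62. Besides ube2ql1, which stood in the ubiquitin list, regulators at least 1.5-fold lower included the chromatin enzymes hdac9b (-0.62) and kdm4b (-0.61), the messenger RNA binding protein igf2bp1 (-0.65), and hsd17b8 (-0.82), which acts on steroids and in mitochondrial fatty acid synthesis and whose second probe set read 0.25. As means over all probe sets kdm4b differed by -0.19 and igf2bp1 by -0.26. With probe sets named _s_at, _x_at or _a_at left out, kdm4b differed by -0.22, read on a dim probe set. The endothelial gene plvapb, of vessel fenestrae, was at -0.63, while the endothelial marker kdrl differed by -0.04.

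Several responses often read in exposed larvae held few genes past 1.5-fold at this time, as did the comparison itself. The background shares past that limit were 1.11% on the higher side and 0.674% on the lower side. At such shares most lists of this size hold few of these genes or none. The counts below therefore cannot show that a response was absent. None of 58 heat shock and folding genes reached 1.5-fold, and 25 were above control (43.1%), with a median of -0.01. None of 40 proteasome genes reached it either, though 29 were above control (72.5%, against 45.4% of all genes), with a median of 0.07. Of 32 p53 target and apoptosis genes 1 did, aifm2 (0.68), which reduces coenzyme Q, while mdm2 read 0.16 and gadd45ab -0.30. Of 58 genes of DNA replication and the cell cycle 17 were above control (29.3%), none differed by 1.5-fold, with pcna at -0.18 and a median of -0.07. Of 65 genes of ribosome biogenesis 20 were above control (30.8%), with a median of -0.08, and npm1b (0.67) was the only one past 1.5-fold. In the hormone axis the glucocorticoid receptor nr3c1 was at -0.48, star, which brings cholesterol to steroid synthesis, at 0.36, and the insulin-like growth factor binding protein igfbp1b at 0.54. Hemoglobin hbae3 differed by 0.35, and the hemoglobin and red cell list had 5 of 9 genes above control and a median of 0.01.

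**Figure D4:**
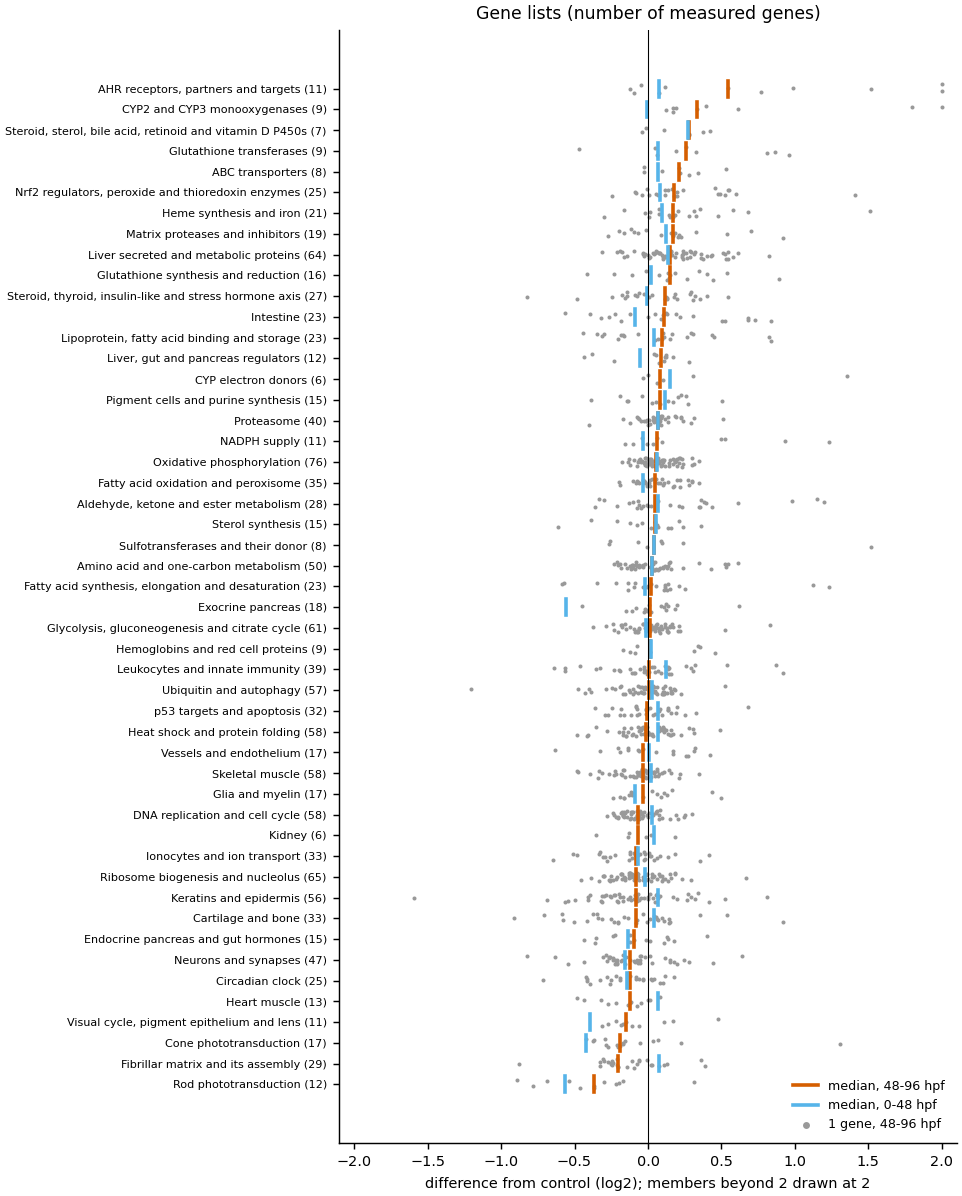
Difference from control (log2) for each measured gene of each list with at least 5 measured genes (grey points, 48-96 hpf), with the list median on the 48-96 hpf array (orange bar) and on the 0-48 hpf array (blue bar). The AHR list has the highest 48-96 hpf median, 0.54, and the rod list the lowest, -0.37. Fibrillar matrix and exocrine pancreas are among the lists whose bars stand far apart on the deposited scale.

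The 0-48 hpf array shares its control with the 48-96 hpf array, so the values below are set side by side without a measure of likeness. Of the 61 genes at least 1.5-fold higher, 51 were also above control on the 0-48 hpf array and 7 of them at least 1.5-fold, with a median of 0.18 beside 0.81. Of the 37 lower genes, 33 were also below control and 4 at least 1.5-fold, with a median of -0.33 beside -0.69. These counts are on the deposited scale and have no share of all genes beside them. The hybridisation controls of the 0-48 hpf array averaged -0.50 against control. Scaled to them, the 0-48 hpf median of the lower genes would lie above control, but every other gene of that array would move up equally. For the 17 genes at least 2-fold higher the median on the 0-48 hpf array was 0.12, the lowest difference -0.12, and cyp1a was the highest.

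How far a value rests on 1 probe set could be seen for part of the genes. Of the 98 genes past 1.5-fold, 70 had 1 probe set. For 18 of the others there was at least 1 further bright probe set, 23 in all, of which 21 differed in the same direction and 10 by at least 1.5-fold. The exceptions were hsd17b8 and gda, a guanine deaminase whose probe sets read 0.61 and -0.25. Of mtpn, -0.67 on the probe set used, the second bright one read -0.11 and a dim one 0.39.

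**Figure D5:**
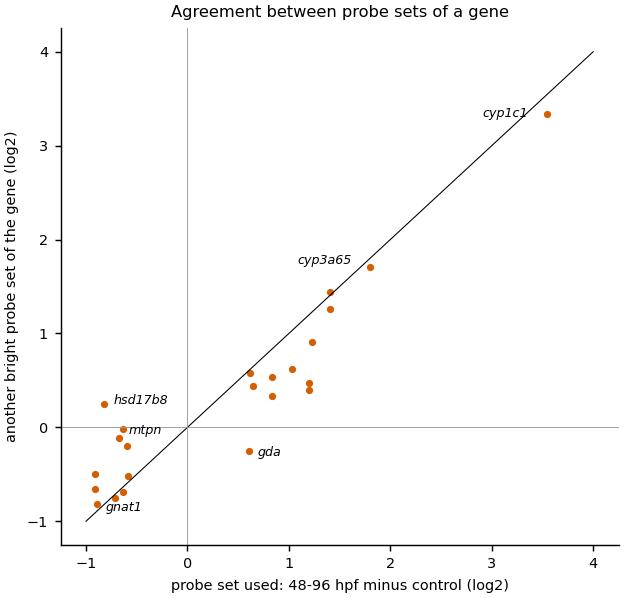
For the 18 genes past 1.5-fold that had further bright probe sets, the difference from control (48-96 hpf minus control, log2) on the probe set used (horizontal) against each of the 23 others (vertical), with a line of equality. Points of hsd17b8 and gda lie across 0, and those of cyp1c1, cyp3a65 and gnat1 lie near the line.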

How the data were processed

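Total RNA of whole larvae was read on 3 Affymetrix zebrafish arrays, 1 per group. The deposited values are log2 expression of 15617 probe sets, made by the authors with RMA per the submitters' processing notes; the sources used here do not give its software or version. RMA subtracts background, equalises the distributions of the arrays (medians 7.22, 7.20 and 7.23 for control, 0-48 hpf and 48-96 hpf) and so can hide a shift common to all genes. Gene names came from the 2016 platform annotation: 10802 probe sets had 1 symbol, 135 several and 4680 none, and 10718 matched a RefSeq table (GRCz12tu) by gene ID. The brightest probe set by mean stood for each gene, and a gene was kept when its highest value reached 7.21, the median of all values. The depth behind a value is not a count; the number of arrays limits the precision. The comparison is the 48-96 hpf value minus control, with counts at 1.5-fold and 2-fold and no test. Named genes were drawn from the 30 highest and 30 lowest, clone names aside, the genes past 2-fold and the tissue markers. Up to 4 members of each list with the largest differences were added to that set. Of the 30 lowest, ifrd2, rnf13, il13ra2, slc25a55a, arrdc2 and atp2b4 are not described above. Genes named beyond this set belong to a group, pathway or chemistry and were chosen after their values were seen. The members and all gene lists were chosen with earlier results of these data known. The alternatives were median centring, quantile normalization, loess (span 0.3), a spike-in scale, no probe sets named _s_at, _x_at or _a_at, the mean over probe sets, a filter on both arrays, a filter at the 75th percentile (8.49) and none. Whether the probe sets so named cross-hybridise was not tested. Scripts ran in Python 3.11.15 with numpy 2.4.6, pandas 2.3.3, scipy 1.17.1 and statsmodels 0.14.6, and the steps that count genes and summarise lists were tested on simulated data.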

Additional observations from a re-analysis of the deposited data

Results flagged for a closer look

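The phospholipase gene pla2g1b, a digestive enzyme of the exocrine pancreas, stood on opposite sides of control on the exposed arrays. It read 8.75 on the control array and 9.37 on the 48-96 hpf array, a log2 difference of 0.62, and 7.67 on the 0-48 hpf array, a difference of -1.09. The difference between the exposures was not tested, since each was read on 1 array.

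Probe sets with no single gene symbol took no part in the comparison. Of the 1778 bright ones, 7 were at least 2-fold higher than control on the 48-96 hpf array and 2 at least 2-fold lower. Among the 5492 genes 17 (0.31%) were at least 2-fold higher and 5 (0.091%) lower, which are shares of similar size. The highest read 5.49 on control and 7.53 on the 48-96 hpf array, a difference of 2.04 from a control reading under the filter value. The lower ones read 8.36 and 7.14, and 8.01 and 6.85, in the same order.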

How the results depend on the processing

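With 1 array per condition nothing here has a replicate check, and no alternative can supply one. No paired analysis was possible because each group has 1 array. Of 54 recomputed counts and shares 43 stayed within their limits, as did 442 of 445 list medians and 1311 of 1340 values of 224 named genes. The share of genes above control, 45.4% as reported, was 43.1% with each array centred on its own median, 50.4% after quantile normalization, 52.1% after a loess correction, 43.2% on the spike-in scale, 51.9% with no filter and 43.0% with a filter set at the 75th percentile. The 5 genes at least 2-fold lower became 2 with the mean over probe sets, 2 with the 75th-percentile filter and 2 with the filter applied to both compared arrays. The 37 genes at least 1.5-fold lower became 23 with the mean over probe sets and 22 with the 75th-percentile filter, which takes in 3017 genes. For the filters the smaller number of genes is part of the change, and otherwise the cause was not tested. The median of the hemoglobin and red cell list, 0.01 as reported, was 0.31 with the mean over probe sets, that of the steroid, sterol and vitamin P450s 0.11 over 19 genes with no filter, and that of the CYP2 and CYP3 enzymes 0.61 over the 5 genes left at the 75th percentile. Averaging probe sets moved 25 named genes, of which cdc25b (0.30 to -0.03), rcvrn2 (-0.37 to 0.03) and slc12a3 (0.17 to -0.08) changed sign, none of them past 1.5-fold. Without probe sets named _s_at, _x_at or _a_at, mtpn turned to 0.39, read on a dim probe set. Fold sizes of genes with a reading under the filter value and all differences of the size seen in the foreign reporters are limited by signal over background.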

Other observations

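Some genes outside the 5492 also differed by at least 2-fold. Below the filter on all 3 arrays, jac1 (1.58), ccl27a (1.36) and si:dkey-286h2.3 (1.18) were higher and si:ch211-250g4.3 (-1.09) was lower, and these were picked for their size. The heme scavenger hpxa, which passed the filter through the 0-48 hpf array, read 6.75 on control, 8.74 on the 0-48 hpf array and 7.33 on the 48-96 hpf array.

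The names of the array's probe sets place cyp1a and the neutrophil peroxidase mpx in 1 design cluster, although the reference places the genes on chromosomes 18 and 10. The 4 probe sets named mpx did not read alike. On the 48-96 hpf array a dim one, at 4.22 on control, 4.41 on the 0-48 hpf array and 6.07 on the 48-96 hpf array, was 1.85 above control, while its bright ones differed by 0.26 and -0.22 and another dim one by 0.04. A signal of cyp1a in that probe set was not tested, and no value reported for cyp1a uses it.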
